A study of Mus musculus with 3 samples.

Results

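S100 proteins are small calcium-binding proteins, and 10 of their genes were followed across the cell classes of mouse brain after a transient ischemic attack (TIA). The 10 genes, S100b, S100a1, S100a4, S100a6, S100a8, S100a9, S100a10, S100a11, S100a13 and S100a16, were found in the files by symbol. They are 10 of the 32285 genes in the files, which list 17 S100 genes in all.

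Most S100 proteins form dimers whose shape changes when calcium binds, and the changed dimer then grips a partner such as an annexin, a myosin or a phosphatase. Some members are also released from cells and act on receptors, among them RAGE, encoded by Ager, and Tlr4. In brain, S100b is used as a marker of astrocytes and as a blood marker of brain injury, while the pair S100a8 and S100a9, which together form calprotectin, is the abundant calcium-binding protein of neutrophils.

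RNA of single brain cells was measured with droplets and molecular barcodes, so that each unique molecular identifier (UMI) stands for a captured RNA molecule. TIA was made by closing the middle cerebral artery with a filament for 5 min. Papain freed single cells from brain tissue cleared of its meninges and white matter, and the live ones were sorted. There were 3 libraries, 1 from naive mice, 1 made 24 h after TIA and 1 made 3 d after TIA, each from 3 pooled mice. All mice were of the WT genotype and the C57BL6J strain, with an age of 10 to 12 weeks in the study's methods, and the naive mice had no occlusion. The control library was labeled naive, not sham-operated. In the study's methods TIA surgery also involved anesthesia, a neck incision and ligated carotid arteries, so surgery and occlusion cannot be told apart here.

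The naive library held 4804 cell barcodes and 37987228 UMIs, the 24 h library 1619 barcodes and 12919691 UMIs, and the 3 d library 5505 barcodes and 48636436 UMIs, where recovery of 10000 cells per library had been aimed for. After removal of barcodes with fewer than 500 genes or more than 7% mitochondrial UMIs, 4018, 1225 and 4781 cells remained, with a median of 7750, 8123 and 7868 UMIs per cell. Cell barcodes that libraries shared numbered 3 for naive and 24 h, 8 for naive and 3 d and 4 for 24 h and 3 d.

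The 24 h library stood apart from the others in size and make-up. Endothelial cells were 18.7% of its kept cells, against 7.14% at naive and 12.4% at 3 d, and pericytes were 14.9%, against 3.96% and 6.84%. Cells like neurons made up 19.8% of the naive library, 9.14% at 24 h and 7.82% at 3 d. Ratios of S100 genes to naive were therefore formed within a class only, and the comparison of 3 d with naive does not use the 24 h library. Levels over mixed cells are given for S100a8 and S100a9 and for the cells left out by the filters. With 1 library per condition there is no measure of spread between animals, no test was made, and a condition and its library cannot be told apart.

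Levels are counts per 1000000 UMIs (CPM), from the summed UMIs of a gene in a class and all UMIs of that class in that library. Bracketed values are 95% intervals, exact Poisson for a level, exact conditional binomial for a ratio and Clopper-Pearson for a share of cells, and they cover counting error only. A class name stands for a cluster whose cells carried that cell type's markers. The 6 classes with at least 50 cells in each library were microglia (1025, 284 and 1274 cells), astrocytes (893, 237 and 1425), oligodendrocytes (232, 72 and 250), endothelial cells (287, 229 and 591), pericytes (159, 182 and 327) and neuron-like cells (796, 112 and 374). The last are called neuron-like because Slc17a7, the transporter of cortical excitatory neurons, was at 0.0979 CPM in them and 0.122 CPM in the other classes, although Stmn2, Dcx and Gad1 were over 100-fold enriched. Naming thresholds for clusters were set after the data had been seen.

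Summed over the libraries, S100b, S100a1, S100a4 and S100a6 were highest in astrocytes, S100a13 in endothelial cells, S100a16 in oligodendrocytes, S100a11 in pericytes and S100a10 in neuron-like cells. None of the 10 was highest in microglia. S100a8 and S100a9 were nominally highest in endothelial cells among these 6 classes, at levels near 0 that are set against neutrophils further on. For 7 of the 10 genes a single class was highest in all 3 libraries. The exceptions were S100a8, S100a9 and S100a16.

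**Figure D1:**
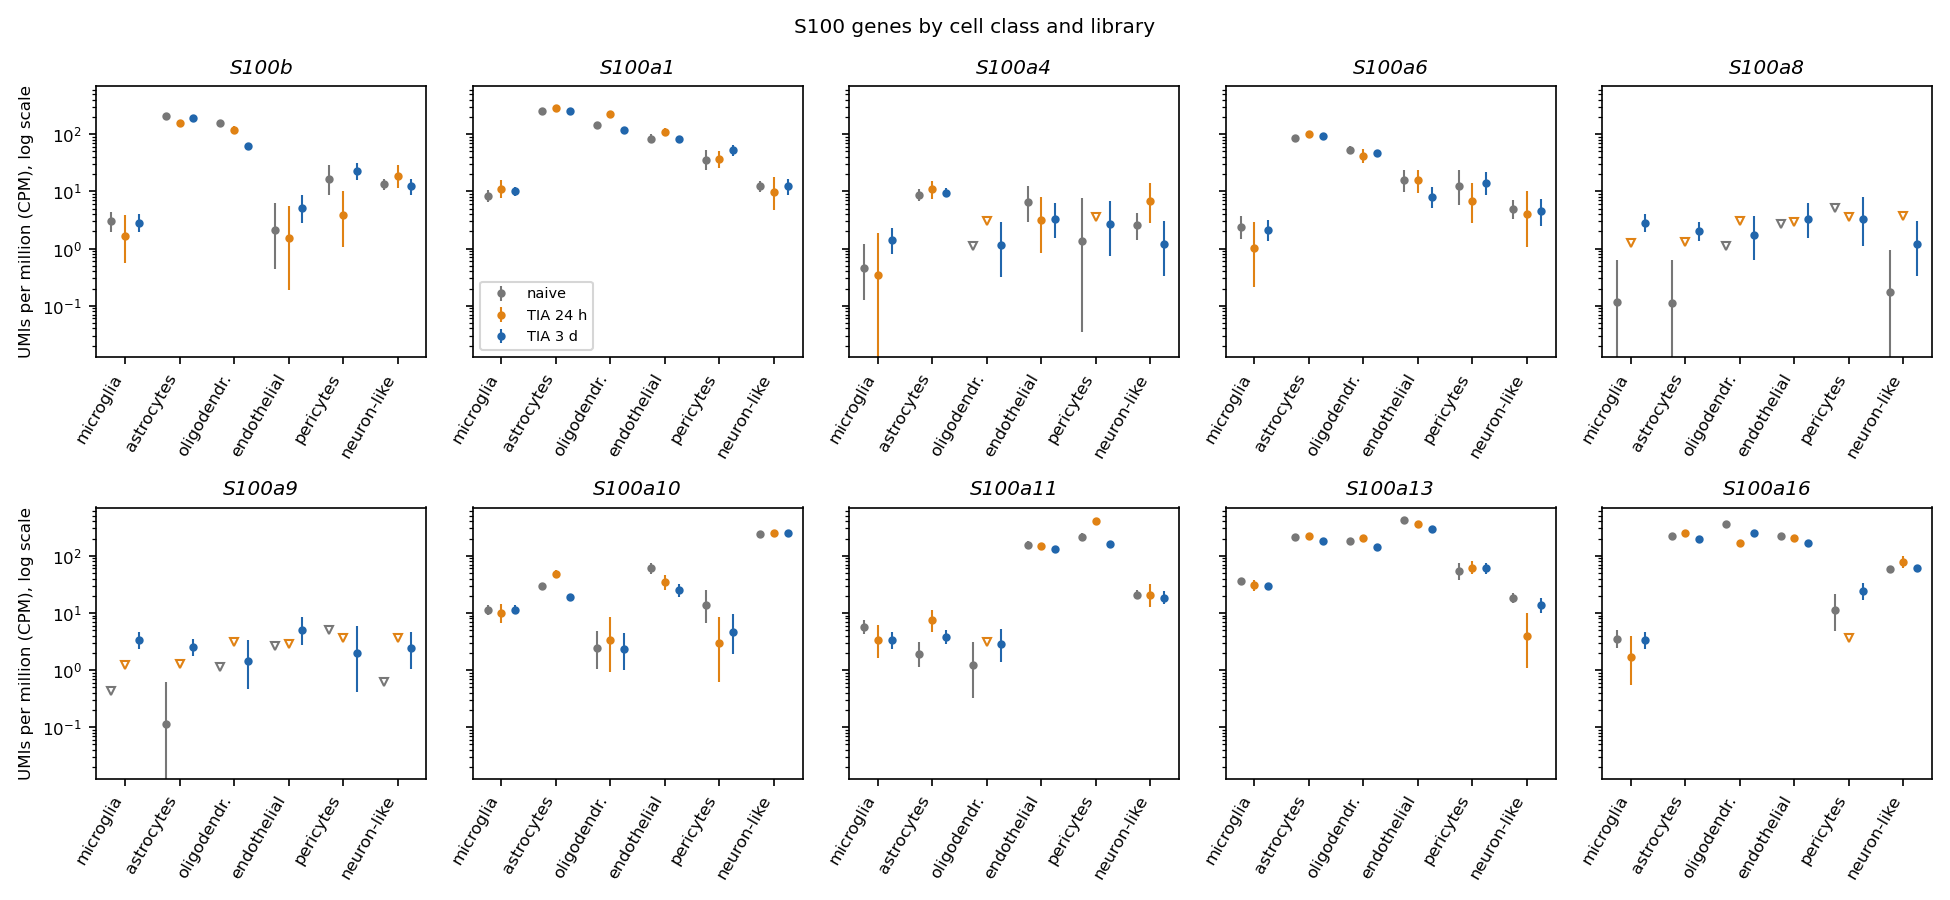
Level of each of the 10 S100 genes (CPM, log axis) in 6 cell classes, by library, with points for summed UMIs, bars for 95% Poisson intervals and open triangles for the upper limit where no UMI was counted. S100b lies between 160.5 and 205 CPM in astrocytes and at 5.11 CPM or less in microglia and endothelial cells.

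How each class's S100 levels differed from naive was asked at 24 h and at 3 d, and both comparisons share the naive library. A ratio was formed for a gene with at least 30 UMIs over the libraries compared, and a difference of at least 2-fold was counted. At 24 h 35 of the 60 pairs of gene and class had enough UMIs, and 4 differed at least 2-fold, 1 higher and 3 lower. At 3 d there were 43 such pairs, and 8 differed at least 2-fold, 6 higher and 2 lower. For 4 of these 8, S100a8 and S100a9 in microglia and astrocytes, naive had 0 or 1 UMI, so the minimum was met through the 3 d library alone and the pair had to pass 2-fold. The same held for 1 of the 4 at 24 h, S100a11 in astrocytes, where 17 naive UMIs and the minimum fixed the call in the smaller library. Of the other pairs, 3 of 34 differed 2-fold at 24 h and 4 of 39 at 3 d. By class, 5.2% to 10.5% of all genes differed 2-fold at 24 h and 2.42% to 7.54% at 3 d. Among these genes more were lower than higher in every class at 24 h. At 3 d more were higher than lower in every class but neuron-like cells, so the directions counted for the members are also those of genes in general.

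At 24 h each class had 0 or 1 measured member past 2-fold, too few to tell whether the share differs from that of all genes. In microglia 1 of 6 measured members, S100a16, differed 2-fold, as did 5.2% of all genes, and the members' median log2 ratio was -0.50 against 0.05 for all genes. In astrocytes S100a11, whose call the minimum fixed, was the 1 of 8 members, beside 9.32% of all genes, with medians of 0.18 and 0.01. In oligodendrocytes S100a16 was the 1 of 5, beside 10.5%, with medians of -0.35 and -0.03. Among neuron-like cells S100a13 was the 1 of 7, beside 9.79%, with medians of 0.00 and -0.05. No member passed 2-fold in the vascular classes, 0 of 6 in endothelial cells, beside 6.05% of all genes, and 0 of 3 in pericytes, beside 5.42%. Member medians there were -0.11 in endothelial cells and 0.20 in pericytes, with all genes at -0.01 and 0.00.

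At 3 d fewer genes in general differed 2-fold than at 24 h in every class but pericytes. In microglia S100a8 and S100a9 were the 2 of 9 measured members, beside 2.68% of all genes, but both calls were fixed by the minimum and 0 of the other 7 passed. The medians were -0.08 for members and 0.06 for all genes. In astrocytes S100a8, S100a9 and S100a11 were the 3 of 10, beside 2.69%, and without S100a8 and S100a9, again fixed, it was 1 of 8. Medians were 0.06 and 0.04. S100b was the 1 of 5 in oligodendrocytes, beside 5.81%, with medians of -0.34 and 0.06. S100a10 was the 1 of 6 in endothelial cells, beside 4.49%, with medians of -0.47 and 0.05. S100a16 was the 1 of 6 in pericytes, beside 7.54%, with medians of 0.32 and 0.07. Neuron-like cells had 0 of 7, beside 2.42% of all genes, with medians of -0.12 and 0.02.

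**Figure D2:**
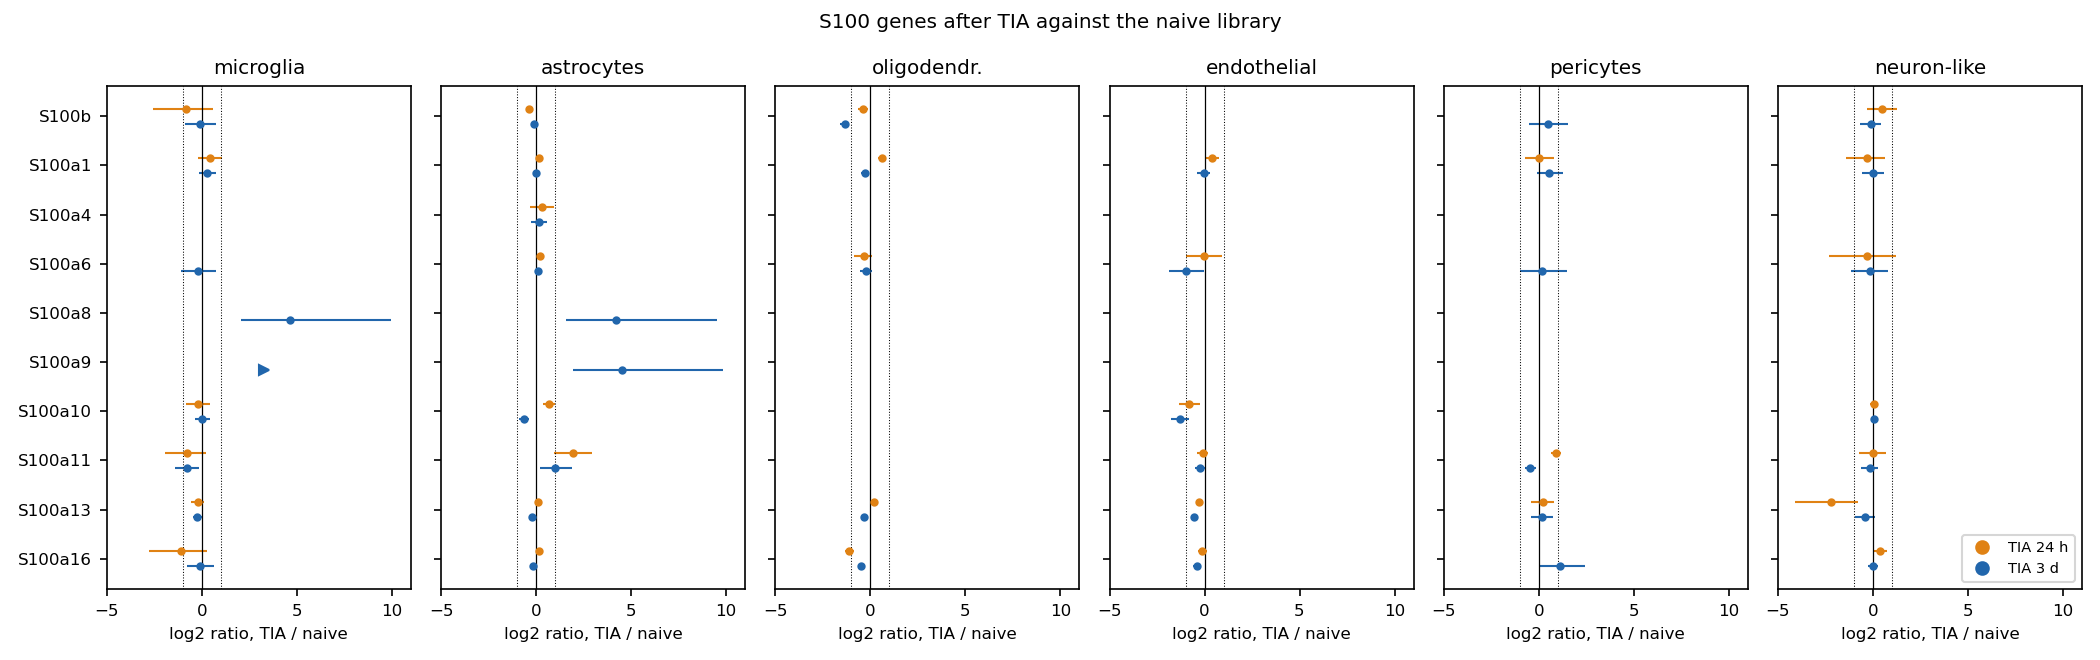
Log2 ratio of CPM after TIA over naive for each S100 gene and class with at least 30 UMIs, 24 h in orange and 3 d in blue, with bars for 95% intervals, right-pointing triangles for lower bounds and dotted lines at 2-fold. S100a8 and S100a9 in microglia and astrocytes at 3 d lie farthest right, and S100a13 in neuron-like cells at 24 h lies farthest left, at -2.19.

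S100b, a glial protein that is also secreted and binds RAGE, was an astrocyte gene with a clear second class in oligodendrocytes. Astrocytes had 205 CPM [196, 215] at naive, 160.5 [146, 176] at 24 h and 190.4 [183, 198] at 3 d, so the 24 h library was the lowest. Their log2 ratios were -0.35 [-0.51, -0.21] at 24 h and -0.11 [-0.19, -0.02] at 3 d, short of 2-fold at both times. Astrocytes comprised 3 clusters, with 164, 237 and 178 CPM, and the highest, led by Mt3, Timp4 and Cxcl14, held 49.05% of the naive astrocytes, 37.55% at 24 h and 39.02% at 3 d. Inside the clusters the 3 d ratios were -0.09 [-0.22, 0.03], -0.05 [-0.18, 0.07] and 0.39 [-0.04, 0.83], so no cluster was lower beyond counting error, and at 24 h only the first was, at -0.42 [-0.63, -0.21]. After each cell was thinned to 2000 UMIs, 33.5%, 32.0% and 30.2% of the 884, 225 and 1409 astrocytes with that depth held a UMI of S100b (73.6%, 70.5% and 74.8% unthinned). Microglia, which should lack S100b, gave 0.693%, 0.358% and 0.712% thinned, from median depths of 7872, 9447.5 and 7826 UMIs against 9332, 11501 and 9307 in astrocytes. The share in astrocytes was thus far above that background in all 3 libraries.

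Oligodendrocytes had less S100b at 3 d than at naive. Their levels were 154 CPM [141, 168] at naive, 118 [99.5, 139] at 24 h and 61.2 [53.2, 69.9] at 3 d, falling from library to library. The log2 ratio was -0.38 [-0.66, -0.11] at 24 h and -1.34 [-1.57, -1.10] at 3 d, and the 3 d ratio passed 2-fold. A few cells carried much of this RNA: the 5 richest of 554 oligodendrocytes held 26.4% of the class's S100b UMIs, with up to 64 in 1 cell, and none of the 5 was called a doublet. At 24 h 5 cells held 73.2% of the S100b UMIs, and without the 5 richest cells of each library the 24 h ratio was -1.44. The 3 d ratio without them was -1.39. S100b in oligodendrocytes stood at 56.3% of its astrocyte level, while the summed astrocyte markers stood at 2.76% of theirs. All 9 astrocyte markers together measured 466, 222 and 710 CPM in oligodendrocytes, with Slc1a2, Slc1a3 and Slc1a3 the most abundant and 0, 1 and 0 markers without a UMI, so at 3 d they were higher while S100b was lower. Doublet calls took 5.17%, 1.39% and 8.40% of oligodendrocytes, and without these cells the ratio was -0.48 at 24 h and -1.29 at 3 d, still past 2-fold at 3 d.

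Elsewhere S100b, summed over the libraries, was near the level that astrocyte RNA in general reached. It was 8.06% of its astrocyte level in pericytes and 7.03% in neuron-like cells, where the astrocyte markers were at 8.32% and 5.63%. In microglia it was at 1.43%, with the markers at 2.34%. The 24 h library departed from this, with S100b at 11.7% and the markers at 3.14% in neuron-like cells, and 2.46% and 4.28% in pericytes. All of the 5 pericytes richest in S100b were called doublets and held 76 to 381 astrocyte marker UMIs each. In neuron-like cells S100b measured 13.3, 18.8 and 12.2 CPM, and its 24 h ratio of 0.50 [-0.31, 1.24] became -0.93 at resolution 0.2 or 1 and with the literal cell filter, -0.91 without regression and -2.20 without the 5 richest cells.

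S100a1, known as a calcium sensor that acts on ryanodine receptors and the calcium pump in muscle, was also highest in astrocytes and reached more classes than S100b. Astrocytes had 259 CPM [248, 270] at naive, 285 [266, 306] at 24 h and 260.3 [252, 269] at 3 d. These levels were close, with log2 ratios of 0.14 [0.02, 0.26] and 0.01 [-0.07, 0.08]. Oligodendrocytes had 148 CPM at naive, 227 at 24 h and 120.0 at 3 d, so the 24 h library was the highest, with ratios of 0.62 [0.40, 0.84] and -0.30 [-0.49, -0.11]. Endothelial cells had 83.9, 111 and 81.1 CPM, again highest at 24 h. S100a1 in endothelial cells was 33.8% of its astrocyte level against 1.61% for astrocyte markers, and in oligodendrocytes 56.3% against 2.76%.

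Microglia and neuron-like cells were the low end for S100a1. Microglia had 8.29, 11.2 and 10.1 CPM, and neuron-like cells 12.3, 9.90 and 12.2 CPM. The thinned share of cells with a UMI was 38.9%, 43.6% and 37.3% in astrocytes against 2.18%, 0.717% and 1.82% in microglia (78.7%, 76.4% and 79.7% against 6.24%, 10.2% and 7.77% unthinned). In neuron-like cells S100a1 stood at 4.59% of the astrocyte level, below the 5.63% of astrocyte markers, and each of the 5 richest cells was called a doublet with 250 to 305 astrocyte marker UMIs. The 24 h ratio in neuron-like cells moved with the settings, from -0.31 to between -3.60 and -3.55 at resolution 0.2, at resolution 1, without regression and with the literal cell filter, and to -1.56 as a mean over cells. An unnamed cluster of 226 cells, led by Ecrg4 and hemoglobin genes, held 285.5 CPM of S100a1 at naive, 371 at 24 h and 259 at 3 d, about as much as astrocytes.

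S100a6, or calcyclin, a partner of the ubiquitin-ligase adaptor Cacybp, followed the same glial order among the 6 classes. Astrocytes had 86.8 CPM [80.8, 93.1], 99.3 [88.0, 112] and 94.0 [89.01, 99.2] at naive, 24 h and 3 d. Intervals of both ratios, 0.19 [-0.01, 0.39] and 0.12 [-0.01, 0.25], included 0, and the 3 d ratio was -0.05 at resolution 0.2. Oligodendrocytes had 53.2, 41.6 and 46.2 CPM, and the thinned share of cells with a UMI was 7.79%, 9.86% and 8% there against 14.6%, 11.6% and 14.1% in astrocytes and 0.198%, 0.358% and 0.475% in microglia. S100a6 reached higher levels outside the compared classes than within them. Cells with fibroblast markers, only 9, 2 and 12 in number, had 1017, 1614 and 647 CPM, and the unnamed cluster led by Ecrg4 had 347, 819 and 239 CPM.

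The small S100a6 level of endothelial cells came mostly from few cells. The 5 richest of 1107 endothelial cells held 65.6% of the S100a6 UMIs of that class, up to 15 in 1 cell, with no doublet call, and the level fell from 11.8 to 4.08 CPM without them. The endothelial ratio was -0.02 [-0.97, 0.92] at 24 h and -0.97 [-1.90, -0.05] at 3 d. In neuron-like cells the 5 richest cells held 27.1% of the S100a6 UMIs and were all called doublets. S100a6 stood there at 5.10% of its astrocyte level with astrocyte markers at 5.63%. Microglia, with 2.42, 1.01 and 2.13 CPM, were the lowest class for this gene in all libraries.

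S100a4, which binds the nonmuscle myosin heavy chain Myh9, was scarce in all 6 classes. Astrocytes had 8.67 CPM [6.84, 10.8] at naive, 10.9 [7.41, 15.5] at 24 h and 9.50 [7.96, 11.2] at 3 d, and their ratios were 0.33 [-0.32, 0.95] and 0.13 [-0.28, 0.56]. Thinned, 0.905%, 2.67% and 1.56% of astrocytes held a UMI, against 0, 0 and 0.0791% of microglia (7.61%, 9.28% and 8.21% against 0.390%, 0.352% and 1.18% unthinned), where the count of 0 allows up to 0.365% and 1.31%. Endothelial cells came next at naive with 6.46 CPM [2.95, 12.3], an interval that overlaps that of astrocytes. S100a4 was higher in a small immune group, 31 barcodes that carried 12 neutrophil and 5 monocyte markers. That group had 317 CPM [218, 445] at naive, 1045 [785, 1364] at 24 h and 164 [141, 189] at 3 d. Its 8, 5 and 18 barcodes included only 3, 1 and 6 with a UMI of S100a4, so the 24 h level, 54 UMIs, is that of a single barcode. Its 12 barcodes with at least 10 UMIs of S100a8 and S100a9 together held 72 UMIs of S100a4, 58 of them in 1 barcode, and the other 19 held 196 UMIs in 7 barcodes. Of the 12, 10 also held microglia markers, at 69.2% or more of the level in microglia. S100a6 measured 746 CPM in the 12 and 708 CPM in the 19, with up to 170 UMIs in 1 barcode.

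S100a10, also called p11, does not bind calcium and holds annexin A2 at the membrane. Among the 6 classes it was highest in neuron-like cells, with 241 CPM [229, 254] at naive, 247.5 [218, 280.2] at 24 h and 249 [232, 266] at 3 d. These 3 levels lay within counting error of each other, with log2 ratios of 0.04 [-0.16, 0.23] and 0.05 [-0.08, 0.17]. Dividing neuronal progenitors had 139, 85.1 and 92.9 CPM. The small immune group had 269 CPM at naive, 329 at 24 h and 52.5 at 3 d, from 28, 17 and 58 UMIs. A single barcode held 25 of the 28 at naive, and a single barcode all 17 at 24 h. The thinned share of neuron-like cells with a UMI was 28.5%, 30.0% and 38.1% (53.9%, 61.6% and 72.7% unthinned), from median depths of 7132.5, 8575 and 8301 UMIs. Oligodendrocytes, the lowest class for S100a10 at naive and 3 d, with 2.43, 3.33 and 2.30 CPM, gave 0.866%, 0 and 0 from medians of 13417, 16150.5 and 12901 UMIs, and the counts of 0 allow up to 5.06% and 1.47%. Anxa2 itself was at 5.09 CPM in neuron-like cells, and at 162.5 CPM in endothelial cells and 95.4 CPM in pericytes.

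Endothelial cells had less S100a10 after TIA. They had 61.0 CPM [48.7, 75.4] at naive, 35.1 [25.6, 47.0] at 24 h and 24.8 [19.3, 31.5] at 3 d, and the naive interval did not overlap the others. The ratio was -0.80 [-1.35, -0.26] at 24 h and -1.30 [-1.78, -0.82] at 3 d, past 2-fold at 3 d. Markers of neuron-like cells, where S100a10 was highest, moved too. The 8 of them summed to 133, 44.5 and 65.0 CPM in endothelial cells, with Stmn2 the most abundant in all 3 libraries and 2, 3 and 2 of them at 0. They stood at 1.76% of their level in neuron-like cells where S100a10 stood at 15.0%, and their part in the fall was not tested. Astrocytes had 29.5 CPM [26.0, 33.3] of S100a10 at naive, 47.9 [40.2, 56.6] at 24 h and 19.0 [16.8, 21.4] at 3 d. That is a higher level at 24 h and a lower level at 3 d than at naive, with ratios of 0.70 [0.39, 1.00] and -0.63 [-0.89, -0.38], and the 24 h ratio was 0.32 without the 5 richest cells. Markers of neuron-like cells summed to 27.9, 5.63 and 18.1 CPM in astrocytes, lower than naive at both times, and their part was not tested.

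S100a11, a partner of annexin A1, was the gene of the vessel wall. Pericytes had 215.5 CPM [183, 252] at naive, 404 [366, 445] at 24 h and 158 [139, 180] at 3 d. The 24 h library was well above the others, with a ratio of 0.91 [0.64, 1.18], just short of 2-fold, and the 3 d ratio was -0.44 [-0.74, -0.14]. Thinned, however, 36.1%, 36.6% and 29.2% of pericytes held a UMI, so the share of cells was alike at naive and 24 h (52.8%, 61.0% and 41.9% unthinned, median depths 4294, 5275 and 3906 UMIs). Microglia gave 0.990%, 0.358% and 0.870% thinned. Smooth muscle markers, 5 genes led by Mylk, summed to 857, 980 and 658 CPM in pericytes, with 1, 1 and 0 of them without a UMI, and pericyte markers to 27109, 25817 and 23710.2 CPM. The part of smooth muscle cells in the 24 h level was not tested.

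Endothelial cells were second for S100a11, with 157 CPM [137, 179] at naive, 147 [127, 170] at 24 h and 132 [119, 147] at 3 d. At 3 d their interval overlapped that of pericytes. This was 57.3% of the pericyte level, with pericyte markers at 0.759% of theirs. Annexin A1, the partner named above, was itself highest in pericytes at 17.96 CPM. The small immune group had 710.5, 523 and 316 CPM of S100a11, with 53 of its 74 naive UMIs in 1 barcode.

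In astrocytes S100a11 was at a low level, with a ratio past 2-fold at both times. Its level was 1.91 CPM from 17 UMIs at naive, 7.39 from 21 UMIs at 24 h and 3.83 from 54 UMIs at 3 d. The ratios were 1.95 [0.96, 2.96] and 1.00 [0.19, 1.88], and the latter was 0.86 at resolution 0.2, 0.85 without regression and 0.96 with median ratio scaling, below 2-fold. At 24 h 66.7% of the UMIs came from 5 cells. Thinned shares were 0.226%, 0.444% and 0.852%, within counting error of those of microglia or below them, so no level above that of microglia was detectable at this depth. S100a11 stood at 1.43% of its pericyte level in astrocytes and 1.72% in microglia, where pericyte markers stood at 0.206% and 0.0529%. The 7 pericyte markers summed to 42.2, 44.0 and 59.5 CPM in astrocytes, with Atp13a5 the most abundant and 1, 2 and 0 of them at 0, and their part was not tested.

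S100a13, which takes part in the export of the growth factor Fgf1 without a signal peptide, was the endothelial member. Endothelial cells had 425 CPM [392, 461] at naive, 353 [321, 387] at 24 h and 291 [271, 312] at 3 d. The level was lower in each later library by less than 2-fold, with ratios of -0.27 [-0.45, -0.09] and -0.55 [-0.70, -0.39]. Thinned, 53.3%, 47.5% and 40.2% of endothelial cells held a UMI against 2.74%, 0 and 1.38% of neuron-like cells, the lowest class, where the count of 0 allows up to 3.62%. Astrocytes had 210.1, 223 and 184 CPM and oligodendrocytes 179.8, 207 and 142 CPM, so S100a13 was spread over 3 classes. In astrocytes it was 58.1% of the endothelial level, with endothelial markers at 0.106% of theirs. Fgf1 was at 1.11 CPM in endothelial cells and at 122 CPM in astrocytes and 106 CPM in oligodendrocytes.

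In neuron-like cells S100a13 fell past 2-fold at 24 h from a low level. It had 18.1 CPM from 106 UMIs at naive, 3.96 CPM from 4 UMIs at 24 h and 13.7 CPM from 46 UMIs at 3 d. The 24 h ratio was -2.19 [-4.09, -0.79], and it moved to between -4.12 and -4.11 at resolution 0.2, at resolution 1, without regression and with the literal cell filter, to -3.30 without doublets and to -0.72 as a mean over cells, which is short of 2-fold. Endothelial markers moved with it: the 7 of them summed to 106.5, 8.91 and 16.1 CPM in neuron-like cells, led by Cldn5, Ly6c1 and Flt1, with 0, 2 and 0 at 0. Their part was not tested.

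S100a16, a broadly expressed member, was highest in oligodendrocytes in the naive and 3 d libraries. They had 355 CPM [335, 376] at naive, 166 [143, 190.3] at 24 h and 251 [234, 268] at 3 d, so the 24 h library was low. The ratio was -1.10 [-1.32, -0.88] at 24 h, past 2-fold, and -0.50 [-0.63, -0.37] at 3 d. From 24 h to 3 d the log2 change was 0.60 [0.37, 0.83]. The thinned share of oligodendrocytes with a UMI was 47.6%, 32.4% and 39.2% (97.4%, 86.1% and 90.8% unthinned) against 0.990%, 0.358% and 0.554% of microglia. Their own markers summed to 34641, 29772 and 31057 CPM, so these too were lowest at 24 h, by a smaller factor.

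Astrocytes and endothelial cells were close behind for S100a16. Astrocytes had 219.8 CPM [210.1, 230] at naive, 246 [229, 265] at 24 h and 196 [189, 203] at 3 d, and endothelial cells 221, 203 and 168 CPM. Astrocytes were thus the highest class at 24 h, with an interval overlapping the endothelial one [179, 229]. In astrocytes S100a16 was 74.6% of its oligodendrocyte level, with oligodendrocyte markers at 0.251% of theirs. Neuron-like cells had 59.8, 78.2 and 60.1 CPM.

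Microglia and pericytes had little S100a16, and both had a ratio past 2-fold on few UMIs. In microglia 31 UMIs at naive and 5 at 24 h gave 3.57 and 1.69 CPM and a ratio of -1.08 [-2.80, 0.30]. Oligodendrocyte markers summed to 144, 51.1 and 91.8 CPM in microglia at naive, 24 h and 3 d, and their part was not tested. Pericytes had 8, 0 and 36 UMIs, or 11.1, 0 and 24.2 CPM, with a 3 d ratio of 1.13 [-0.00, 2.44]. The pericyte ratio was below 2-fold without regression (0.98), with the literal cell filter (0.90) and as a mean over cells (0.85), and gave no value without doublets. All of the 5 richest pericytes were called doublets, with 107 to 396 astrocyte marker UMIs. The 9 astrocyte markers summed to 1386, 824 and 2265 CPM in pericytes, led by Atp1b2, Atp1b2 and Slc1a2, with 1, 1 and 0 of them at 0, and their part was not tested.

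S100a8 and S100a9, the calprotectin genes of neutrophils, were found almost wholly in a handful of barcodes. The kept cells of the naive library held 967 S100a8 and 1013 S100a9 UMIs, those of the 24 h library 2 and 17, and those of the 3 d library 14106 and 13932. A single barcode held 99.8% of both at naive, and a single barcode held all 19 at 24 h. At 3 d 10 barcodes of the small immune group held 13989 S100a8 UMIs, 99.2% of the library, and 13796 S100a9 UMIs, 99.02%. Levels in that group were 9256 CPM at naive, 38.7 at 24 h and 12652 at 3 d for S100a8, and 9717, 329 and 12477 CPM for S100a9, each resting on those few barcodes. The number of such barcodes does not measure how many neutrophils were in the tissue.

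Barcodes with at least 10 UMIs of both genes together, a limit chosen after the data were seen, numbered 1, 1 and 11. The 11 at 3 d had 11406 to 157408 UMIs with a median of 94953, and 9 of them lay above the 99th percentile of that library, 45686 UMIs. In 10 of the 11, the summed microglia markers reached at least 50% of their level in microglia, and the median was 85.0%, while markers of the other compared classes stayed at 2.63% or less. None of the 11 was called a doublet. The exception was a barcode of 11406 UMIs in which S100a8 and S100a9 made up 31.9% of all UMIs, with 309 UMIs of Camp, 188 of Ngp and 151 of Ltf, which encode neutrophil granule proteins, none of P2ry12, and microglia markers at 9.09%. The naive barcode had 29286 UMIs, S100a8 and S100a9 at 6.75% of them and microglia markers at 80.8%, and the 24 h barcode 3923 UMIs and microglia markers at 5.54%. Most of the S100a8 and S100a9 RNA thus sat in very deep barcodes that also held microglia RNA, and whether these hold more than 1 cell was not tested. Great depth was not particular to them. Of the 48 barcodes above the 99th percentile at 3 d, 45 lay in the immune cluster that the small group was part of. The rest of that cluster, outside the group, had a median of 30720.5 UMIs at naive and 39927 UMIs at 3 d.

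**Figure D3:**
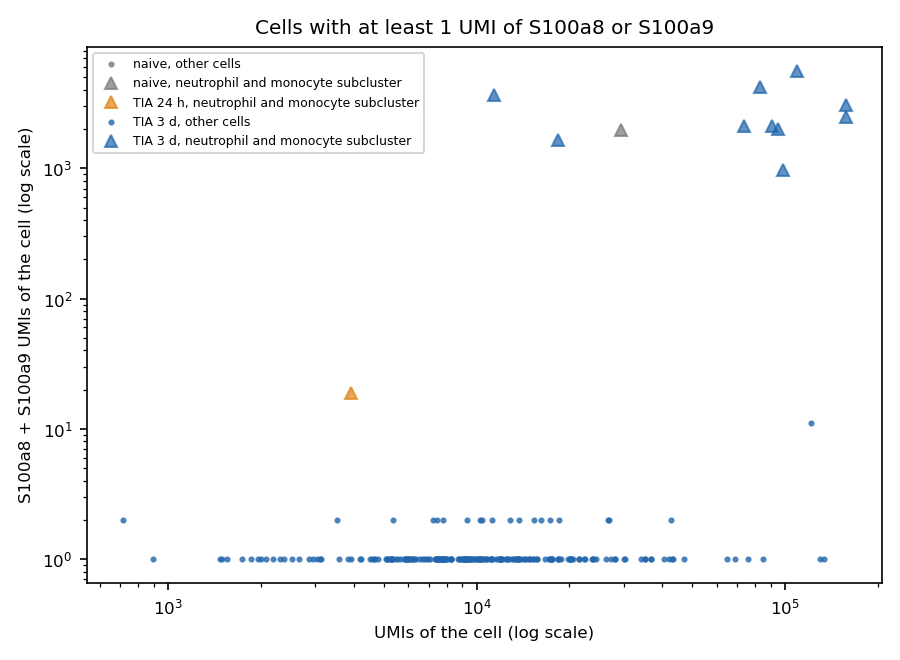
UMIs of S100a8 and S100a9 together in each kept cell with such a UMI against all UMIs of that cell (both axes log), by library, with triangles for the neutrophil and monocyte group and dots for other cells. Dots at 3 d hold 1 or 2 UMIs each apart from 1 cell with 11, and triangles reach 5560.

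Outside these barcodes, S100a8 and S100a9 were at a low level that was higher at 3 d. The remaining 4017 naive cells held 3 UMIs of S100a8 and 1 of S100a9, or 0.114 CPM [0.0311, 0.293] of both. The 1224 cells at 24 h held none, which allows up to 0.313 CPM. At 3 d 4770 cells held 112 and 130 UMIs, or 5.35 CPM [4.70, 6.06], spread over 223 cells with at most 2 UMIs each. In the 6 classes the 3 d level of both genes was 6.21 CPM in microglia, 4.61 in astrocytes, 3.16 in oligodendrocytes, 8.40 in endothelial cells, 5.37 in pericytes and 3.59 in neuron-like cells. All 6 classes thus held some at 3 d, the library with 11 rich barcodes against 1 each at naive and 24 h. Endothelial cells had the most and oligodendrocytes the least, but their intervals, [5.32, 12.6] and [1.58, 5.65], overlapped. Over all kept cells both genes together measured 56.5 CPM at naive and 606 CPM at 3 d. The other cells held 0.202% of these UMIs at naive and 0.863% at 3 d.

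Ratios of S100a8 and S100a9 to naive were large because naive was at or near 0. In microglia S100a8 went from 1 to 32 UMIs at 3 d, a log2 ratio of 4.62 [2.04, 9.97], and S100a9 from 0 to 38, at least 9.76-fold against a floor of 3 UMIs. In astrocytes S100a8 went from 1 to 29 UMIs, a ratio of 4.19 [1.60, 9.54], and S100a9 from 1 to 36, a ratio of 4.50 [1.93, 9.85]. Thinned, 0.870% [0.435, 1.55] of microglia at 3 d held a UMI of S100a9, 0.710% of astrocytes, 1.08% of endothelial cells, 0.656% of pericytes, 0.552% of neuron-like cells and 0 of oligodendrocytes, which allows up to 1.46% (2.59%, 2.46%, 2.20%, 0.612%, 2.14% and 1.60% unthinned). Median depths ranged from 3906 UMIs in pericytes to 12901 in oligodendrocytes, and thinning left out 10 of the 1274 microglia. The microglial share was within counting error of that of the classes that should lack the gene, so it does not show expression in microglia.

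S100a8 made up 50.3% [49.8, 50.9] of the UMIs of both genes in the 11 rich barcodes at 3 d and 46.3% [39.9, 52.8] in all other cells, so the proportion was alike within counting error. Neutrophil markers without Csf3r, which microglia also express, were the other 12, and they summed to 6.77, 2.63 and 6.50 CPM in the other cells at naive, 24 h and 3 d. Of the 237 naive UMIs, 77 lay in 7 barcodes of the small immune group. Outside that group, a set chosen after the data were seen, the markers had 4.58, 2.04 and 6.33 CPM, with a log2 ratio of -1.17 [-1.85, -0.54] at 24 h and 0.47 [0.18, 0.75] at 3 d, so they too were higher at 3 d, by a smaller factor. By class the 3 d ratio was above 0 in all but oligodendrocytes, and each interval included 0. Per UMI of S100a8 or S100a9 there were 0.256 UMIs of these markers in the rich barcodes at 3 d and 1.18 in the cells outside the group, which held the markers at naive too. How RNA of S100a8 and S100a9 reached the other cells was not tested.

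The other S100 genes and known partners give the setting. Of 8 further S100 genes listed, 7 were in the files, and only S100a2 in astrocytes at 3 d had enough UMIs for a ratio, -0.58. Of 11 intracellular partners, 5 to 10 were measured per class and time, and their median log2 ratios ran from -0.26 to 0.13. Of their 98 ratios 10 passed 2-fold, or 10.2%, where the share of all genes ran from 2.42% to 10.5% by class and time. Some of the 10 had so few naive UMIs that the minimum of 30 UMIs fixed the call, and these are marked below. The 1 past 2-fold on at least 100 UMIs was Anxa5 in microglia at 24 h, from 18.9 to 37.9 CPM with a ratio of 1.00 [0.65, 1.36], and 5 of the 284 cells held 33.0% of the 112 UMIs at 24 h against 9.15% at naive. On fewer UMIs, Anxa11 in pericytes went from 30.4 to 67.0 CPM at 24 h, the time and class where S100a11 was also high, with a ratio of 1.14 [0.43, 1.90]. Anxa1, the partner named above for S100a11, had a ratio of 0.51 [-0.65, 1.77] there, from 10 to 20 UMIs. Whether these genes change together was not tested. Other partners above 2-fold were Anxa2 in astrocytes at 24 h (2.78, from 10 to 22 UMIs) and Anxa11 in astrocytes at 3 d (1.01). Ahnak, a scaffold that binds the S100a10 and annexin A2 complex, was above 2-fold at 3 d in microglia (1.27, from 8 to 25 UMIs). In oligodendrocytes its 3 d ratio was 2.38, from 6 to 33 UMIs, with 90.9% of the 33 in 5 cells. The minimum fixed the calls of Anxa2 in astrocytes and of Ahnak in both classes. In neuron-like cells at 24 h Anxa2 (1.29) was higher and Anxa5 (-1.46) and Fgf1 (-2.92 [-8.26, -0.37], from 44 UMIs to 1) lower, each on few UMIs. Markers of other classes were lower there too, from 1163 to 605 CPM for astrocytes and from 106.5 to 8.91 CPM for endothelial cells. Oligodendrocyte markers went from 140 to 40.6 CPM and pericyte markers from 49.9 to 11.9 CPM, and their part was not tested. The Anxa11 ratio of 4.07, fixed by the minimum with 9 naive UMIs, came from 26 UMIs that all lay in 1 of the 112 cells.

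Receptors for secreted S100 proteins were measured unevenly. Ager stayed at 4.34 CPM or less in every class over all libraries. Tlr4 and its cofactor Ly96 were highest in microglia, at 90.4 and 59.7 CPM, and Bsg, a receptor described for S100a9, reached 9135 CPM in endothelial cells. Of 6 receptors, 1 to 3 were measured per class and time, and 2 of 28 ratios passed 2-fold, or 7.14%, a share within the range for all genes. They were Tlr4 in astrocytes at 24 h (-1.08, from 53 to 8 UMIs) and Ly96 in oligodendrocytes at 24 h (1.26, from 16 to 14 UMIs in a smaller library). The minimum fixed the Ly96 call, but not the Tlr4 call. Markers of microglia, the class highest in Tlr4, went from 760 CPM at naive to 315 CPM at 24 h in astrocytes, and their part was not tested.

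On the mouse genome build GRCm38, 9 of the 10 genes lie on chromosome 3 and S100b lies on chromosome 10, at chr10:76253853-76261159 on the plus strand. S100a1 (chr3:90511034-90514392, minus) and S100a13 (chr3:90514435-90524581, plus) are head to head with 42 bases between them, and their levels over classes and libraries had a correlation of 0.86. S100a16 (chr3:90537254-90543151), S100a4 (chr3:90603771-90606045) and S100a6 (chr3:90612882-90624181) follow on the plus strand. S100a8 (chr3:90668978-90670035, plus) and S100a9 (chr3:90692632-90695721, minus) are 22596 bases apart. S100a11 (chr3:93520488-93526287, plus) and S100a10 (chr3:93555080-93564643, plus) are 28792 bases apart, and they were highest in different classes.

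Promoter sequences are shown for S100a8 and S100a9, whose UMIs lay in the same few barcodes, and for S100a11, which was higher at 24 h in pericytes. They run from 250 bases before to 50 bases after the gene start in the RefSeq table for GRCm38.p6, which has an entry for 9 of the 10 genes, all but S100a10. Motifs were chosen after the data had been seen and were searched on both strands: TATAAA, found in many core promoters, in 13.6% of 32817 promoters, TTGCNNAA (C/EBP), in 10.8%, CCAAT, in 37.4%, and TGANTCA (AP-1), in 7.81%. TATAAA was found in S100a4, S100a8 and S100a9, TTGCNNAA in S100a9, CCAAT in S100a6 and S100b, and TGANTCA in S100a11 and S100a16. Capitals mark TATAAA in S100a8 (chr3:90668821-90669120, plus strand), at -30 from the gene start. In S100a9 (chr3:90695672-90695971, minus strand) they mark TTGCNNAA at -236 and TATAAA at 1, on the gene start itself. In S100a11 (chr3:93520246-93520545, plus strand) they mark TGANTCA at -136 and -38. A match describes letters in the window and is no evidence of binding.
S100a8: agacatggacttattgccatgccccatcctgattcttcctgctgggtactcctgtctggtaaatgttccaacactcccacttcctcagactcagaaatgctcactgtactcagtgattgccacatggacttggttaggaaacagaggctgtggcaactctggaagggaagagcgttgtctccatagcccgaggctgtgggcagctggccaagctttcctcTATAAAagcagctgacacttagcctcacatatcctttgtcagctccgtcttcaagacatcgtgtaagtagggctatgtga
S100a9: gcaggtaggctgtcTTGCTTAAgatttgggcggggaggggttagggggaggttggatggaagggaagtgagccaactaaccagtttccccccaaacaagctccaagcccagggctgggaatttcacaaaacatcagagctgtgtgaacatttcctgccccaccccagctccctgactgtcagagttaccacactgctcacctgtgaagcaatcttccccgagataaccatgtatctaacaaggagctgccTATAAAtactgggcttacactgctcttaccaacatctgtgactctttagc
S100a11: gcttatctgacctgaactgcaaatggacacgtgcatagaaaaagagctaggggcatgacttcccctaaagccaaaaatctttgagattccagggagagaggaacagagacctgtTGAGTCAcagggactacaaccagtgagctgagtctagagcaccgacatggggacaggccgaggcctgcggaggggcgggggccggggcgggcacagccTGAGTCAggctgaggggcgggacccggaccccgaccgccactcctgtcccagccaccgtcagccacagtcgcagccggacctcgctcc

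Genes with the most similar pattern were sought by Pearson correlation of log2(CPM + 1) over 18 sums of 6 classes and 3 libraries, among 15283 genes with at least 100 UMIs. These points share libraries, and the values are a description. For S100b the highest were Myh14 (0.98) and Fbxo2 (0.97), for S100a1 Elovl5 (0.98) and Myo6 (0.96), for S100a6 Cyp2j6 (0.96) and Alcam (0.95), and for S100a4 Fam181b (0.93) and Ankrd29 (0.91). For S100a10 they were Efnb2 (0.93) and March3 (0.92), and for S100a11 Ackr3 (0.97) and Nes (0.96). S100a13 was closest to Higd1a (0.96) and Larp1b (0.95), and S100a16 to Stox2 (0.95) and Limch1 (0.93). S100a9, near 0 in most sums, reached only 0.76 with Sfswap and 0.63 with Gm28307, and S100a8 had too few UMIs. Among the members, S100a1 and S100a6 were most alike at 0.94, S100b and S100a6 had 0.84, and S100b and S100a11 were most opposed at -0.55.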

How the data were processed

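Single-cell RNA of 3 libraries (naive, TIA 24 h, TIA 3 d; 3 pooled mice each) was read from the deposited raw UMI counts, which the authors made with Cell Ranger on mm10; the file headers give version 7.1.0 and the processing notes 3.1.0. The stated cell filter was read as leaving out cells that cross either limit; 786, 394 and 724 cells were left out. Clusters were made in Seurat 5.3.0 (R 4.3.3) from 2000 variable features without S100 genes (6 of these had been variable), with UMI number and mitochondrial share regressed out, 20 components and resolution 0.5, and the immune cluster was divided again. A cluster was named when at least 3 markers of 1 type were in at least 10% of its cells at 2-fold the other cells. Scrublet (scanpy 1.11.5) calls of doublets were recorded and the cells kept. UMIs were summed per class and library and scaled to CPM with numpy 2.4.6, scipy 1.17.1 and pandas 2.3.3 in Python 3.11.15; matplotlib 3.10.9 drew the figures. Libraries held 12919691 to 48636436 UMIs. No test was made, since each condition has 1 library. A library at 0 UMIs was set to 3 UMIs, and calculations were tested on simulated data. Named genes were the 10 members, list genes past 2-fold and the 2 genes most like each member. Members and lists (other S100 genes, intracellular partners, receptors, markers of 19 cell types) were chosen with earlier results of these data known. Alternatives concerned clustering, regression, cell filter, doublets, RNA of other classes, scaling, count minimum, the richest cells, means over cells, the fold limit and thinning.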

Additional observations from a re-analysis of the deposited data

Results flagged for a closer look

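Some ratios to naive lay on opposite sides of 0 at 24 h and 3 d, with neither interval reaching 0. The log2 change from 24 h to 3 d was -0.92 for S100a1 in oligodendrocytes, -1.33 for S100a10 in astrocytes, -1.35 for S100a11 in pericytes and -0.33 for S100a16 in astrocytes, where the 24 h ratio was -0.02 as a mean over cells. For S100a16 this change of side was that of 1 astrocyte cluster, with ratios of 0.36 at 24 h and -0.19 at 3 d and 44.23%, 56.54% and 54.53% of the class's cells at naive, 24 h and 3 d. The cluster led by Mt3, Timp4 and Cxcl14 had -0.12 and -0.10 and the smallest cluster -0.21 and 0.16, with intervals that included 0. For S100a10 the first cluster had 0.95 and -0.65, and the one led by Mt3 0.23 [-0.35, 0.77] and -0.63 [-1.01, -0.26].

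Others lay on opposite sides of 0 in different classes at the same time. At 24 h the log2 ratio of S100a10 was 1.496 higher in astrocytes than in endothelial cells, and that of S100a16 was 1.27 higher in astrocytes and 1.49 higher in neuron-like cells than in oligodendrocytes. At 3 d the log2 ratio of S100a11 in astrocytes was 1.77 above that in microglia, 1.25 above that in endothelial cells and 1.45 above that in pericytes. In microglia 14 of the 50 naive UMIs lay in 1 cell. The main microglia cluster, with 89.95% of the class's cells at naive and 78.1% at 3 d, had a ratio of -0.39 [-1.17, 0.38], and the other cluster had 17 UMIs at naive (18.42 CPM) and 10 at 3 d (3.78 CPM). With a single library per condition, whether these times and classes differ was not tested.

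Cells left out by the filters, 786 at naive, 394 at 24 h and 724 at 3 d, also held S100 RNA, at a higher level after TIA than at naive. At naive, 24 h and 3 d, S100b measured 80.4, 111 and 187 CPM in them, S100a1 96.3, 197 and 279 CPM, and S100a6 36.5, 89.6 and 188.5 CPM. S100a13 measured 75.3, 171 and 208 CPM and S100a16 102, 149.6 and 181 CPM. S100a10 had 19.2, 68.1 and 33.4 CPM, S100a11 8.78, 37.6 and 22.8 CPM, and S100a4 4.73 CPM at naive and 20.7 CPM at 3 d. These cells were not divided into classes, and the differences were not tested.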

How the results depend on the processing

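No called ratio changed sign under any alternative. The 8 pairs of gene and class past 2-fold at 3 d became 5 without regression, 1 in cells with at most 1 UMI of other classes' markers, 2 with a minimum of 100 UMIs and 16 with no minimum. The 1 in cells with few UMIs of other markers, S100a16 in endothelial cells (-1.12), was not among the 8, none of which had a ratio there, and of the 3 at 24 h in those cells only S100a16 in oligodendrocytes was among the 4. The 4 pairs at 24 h became 2 with a minimum of 100 UMIs, 11 with no minimum and 10 with a 1.5-fold limit. For the minimum and the fold limit this follows from the number of pairs counted; otherwise the cause was not tested. Without thinning 2.59% of microglia at 3 d held a UMI of S100a9, against 0.870% with it, as deeper cells are counted whole. Under the other alternatives for which these pairs were counted, the number stayed within 1.5 times the main one, not always with the same pairs. No such number was made without the 5 richest cells: 6 of the 12 pairs past 2-fold still had a ratio there, all past 2-fold, and the other 6 had too few UMIs. The class of highest level was the same for 10 of 10 members, or for 9 without regression, with the literal cell filter, with few UMIs of other markers and without the 5 richest cells; the exception was S100a8 or S100a9. Ratios stayed within their interval for 78 of 78 pairs with the S100 genes kept and with median ratio scaling, 66 of 76 with the literal filter, 57 of 64 without the 5 richest cells, and 8 of 25 in cells with few UMIs of other markers, which left 3 to 179 cells per class and library. The mean over cells gave no value for S100a9 in microglia, where naive was at 0. Low counts limit S100a4, S100a8 and S100a9 in all classes, and pairs under 30 UMIs gave no ratio.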
